A study of Mus musculus with 14 samples.

Results

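The constitutive proteasome and the ubiquitin-conjugating enzymes were followed in liver RNA of Snell dwarf mice and their wild type controls at 6 and 22 months of age. Members were all probe sets with a single gene symbol that starts with Psma, Psmb, Psmc, Psmd or Ube2, without the interferon-inducible subunits Psmb8, Psmb9 and Psmb10. The rule gave 74 of the 12488 probe sets of the array, for 56 genes. The core particle (Psma and Psmb) had 19 probe sets for 14 genes, the regulatory cap (Psmc and Psmd) 26 for 21 genes, and the conjugating enzymes (Ube2) 29 for 21 genes. Of the 74, 62 probe sets for 50 genes had enough signal to be tested. Selection used names and no measured value, so Psmc3ip, a meiotic recombination factor, is a member by its symbol alone.

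The proteasome degrades proteins that carry chains of ubiquitin. Its barrel-shaped core is built of rings of Psma subunits, which form the gate, and rings of Psmb subunits, of which a few cut protein. The cap binds the chain, removes it and unfolds the substrate with the Psmc ATPases, while Psmd subunits form its scaffold, receptors and lid. Ubiquitin reaches a substrate through an activating enzyme, a Ube2 conjugating enzyme and a ligase. Liver depends on this route for much of its turnover of regulatory and damaged proteins.

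Snell dwarf mice carry a mutation of the pituitary transcription factor Pit-1, which leaves them without growth hormone, prolactin and thyroid-stimulating hormone, and the labels describe them as long-lived. The 14 animals formed 4 groups of 1 array per animal: wild type at 6 months (animals 82, 84, 86 and 88), dwarf at 6 months (83, 85, 87 and 89), wild type at 22 months (1, 2 and 24) and dwarf at 22 months (3, 4 and 8). Total RNA of whole snap-frozen liver was put on an Affymetrix mouse array, and values are probe set signals on a linear scale, which are not comparable between probe sets. Sex, strain background, litter and batch are not given in the sources used here, and the Pit-1 mutation is present in every tissue, so liver-intrinsic and hormonal differences cannot be told apart.

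The arrays shared 1 scale, with trimmed means from 500.357 to 500.437. All 8 hepatocyte markers tested, among them albumin, were above the filter signal on all arrays, and their summed signal was 134995 to 166506 in wild type and 178292 to 244380 in dwarf livers at 6 months, and 142506 to 183110 and 146356 to 170185 at 22 months. The 25th percentile of signal was 56.5 to 74.1 on the dwarf arrays at 6 months, above 48.9 to 56.0 in wild type at 6 months and 46.6 to 54.8 in the 22-month arrays. Their 3′ to 5′ signal ratio of beta-actin, which rises with RNA degradation, was 2.29 to 2.69. It overlapped with 1.16 to 2.38 in wild type at 6 months and lay above 1.25 to 1.74 at 22 months. Wild type animal 88 had the lowest ratio of the 14 arrays (1.16) and the highest 18S ribosomal signal of the 6-month arrays (163, against 184 to 1147 at 22 months). Of the markers tested, 4 of 8 for hepatocytes, 3 of 5 for endothelium and 3 of 8 for leukocytes and Kupffer cells were higher in dwarf livers at 6 months, and none of these was lower. Of 2 red cell precursor markers 1 was lower, and of 6 interferon-stimulated genes 1 was higher and 1 lower. The part of these measures in the results was not tested beyond the fits that include them.

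Across the 4 groups, dwarf livers at 6 months most often held the lowest mean of a member. This was so for 32 of the 62 tested members (51.6%), against 26.8% of all 7227 probe sets tested. The share was 14 of 22 in the cap (63.6%), 7 of 17 in the core (41.2%) and 11 of 23 among conjugating enzymes (47.8%). The same group held the highest mean for 12 of the 62 members (19.4%), against 42.0% of all probe sets tested. After median scaling, which gives every array the same median, the shares of lowest means were 69.4% for members and 41.3% for all probe sets. With quantile normalization they were 54.8% and 32.1%. The shares of highest means were 12.9% for members and 25.0% for all probe sets after median scaling, and 24.2% and 35.4% with quantile normalization. The median signal over the 62 members ran from 690.95 to 728.45 on the dwarf arrays at 6 months and from 710.45 to 805.45 in wild type at that age. It ran from 746.9 to 842.8 and from 761.1 to 806.15 in wild type and dwarf livers at 22 months.

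**Figure D1:**
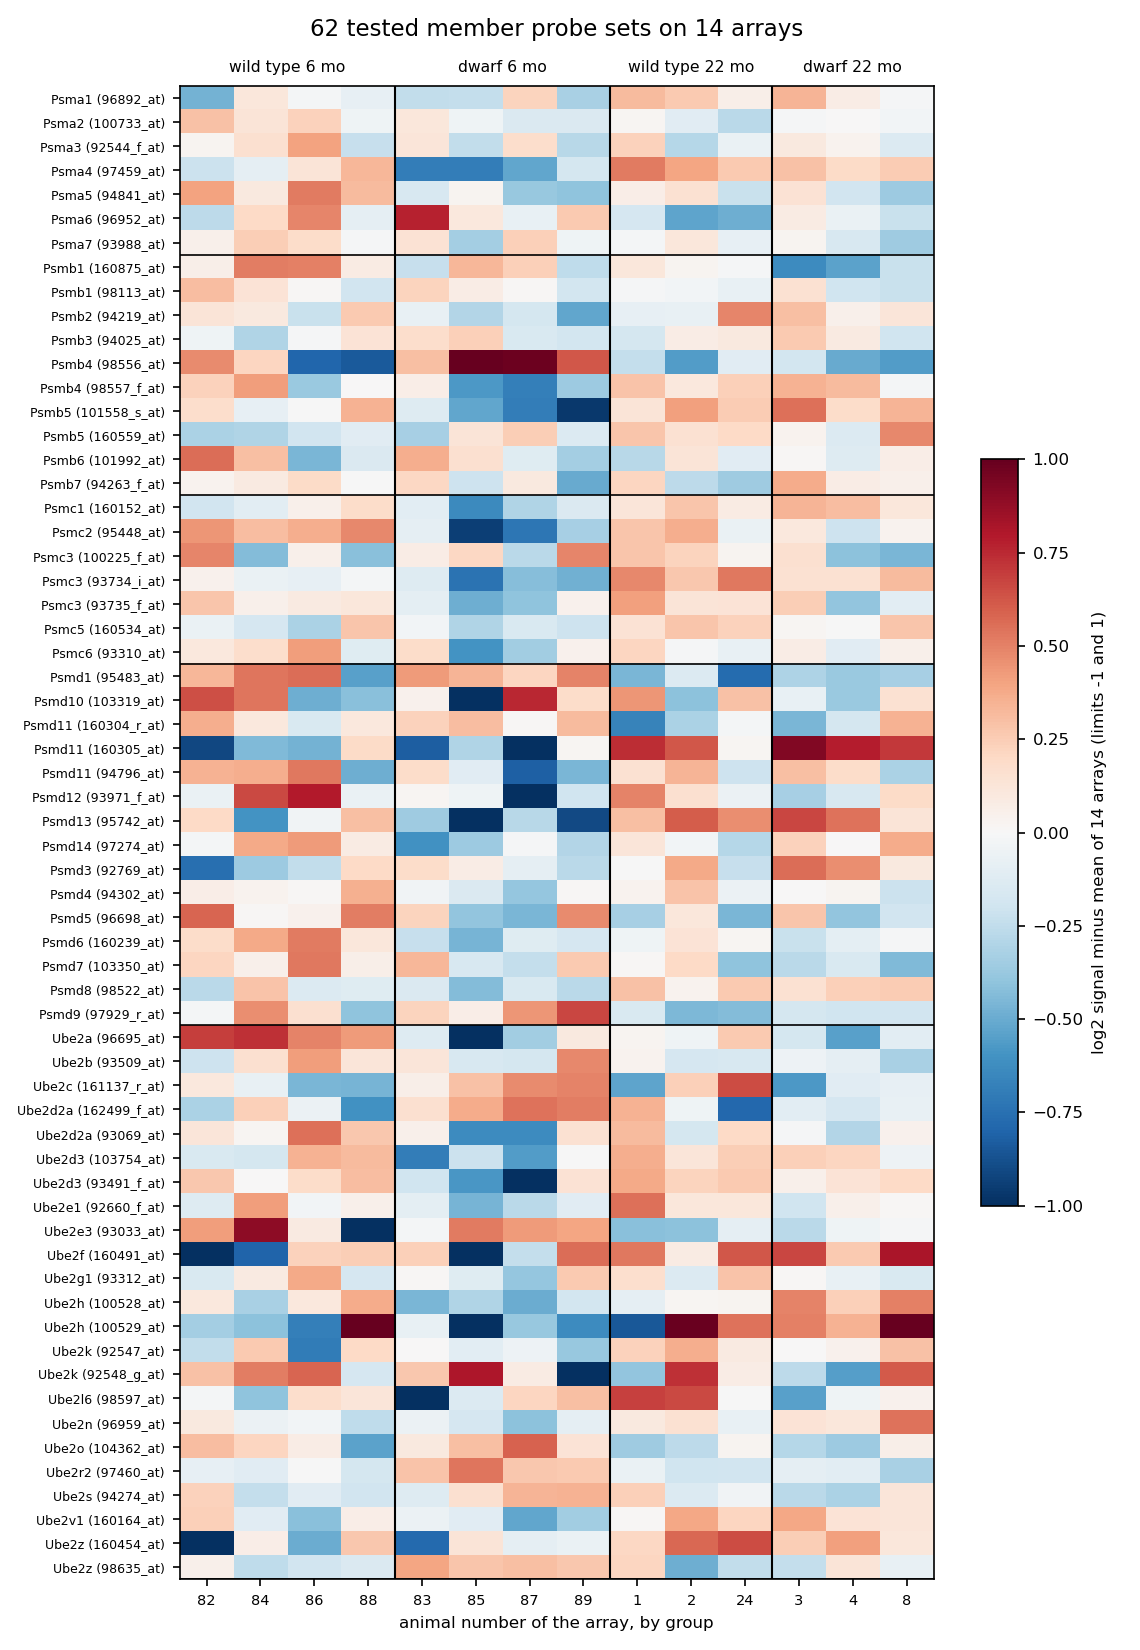
Log2 signal of the 62 tested member probe sets (rows, grouped as core, cap and conjugating enzymes) on the 14 arrays (columns, by group), each row centred on its own mean so that colour shows log2 difference from that mean. The columns of dwarf livers at 6 months hold the lowest group mean in 32 of the 62 rows.

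At 6 months, a small number of proteasome subunits were lower in dwarf than in wild type liver, spread over the core and the cap. Of the 62 tested members, 9 passed at an adjusted p under 0.05 (14.5%), 2 higher and 7 lower in dwarf livers, against 13.3% of all probe sets tested. That share is near the background, so the number of members that passed does not set them apart. For calls in 1 direction, the background was 6.37% higher and 6.95% lower. The median log2 difference was -0.16 over the members and 0.10 over all probe sets, and 44 of 62 members lay below 0. Values of the 2 groups did not overlap in 9 of the 62 members, against 17.1% of all probe sets. In bulk tissue, fewer cells of a type and less RNA per cell cannot be told apart. Median scaling moved the median of all probe sets to -0.10 and that of the members to -0.35, and it changed the 9 calls to 14, all lower. Under that scaling 188 of 1034 calls over all probe sets were higher, against 460 of 962 as deposited.

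In the core, 4 of 17 tested probe sets passed at 6 months, 3 lower and 1 higher. Psmb5 carries the chymotrypsin-like activity of the proteasome. Its probe set with the suffix _s_at (probes shared between transcripts) read 1586, 1319.5, 1393 and 1780.3 in wild type and 1280.1, 977, 868 and 718 in dwarf livers at 6 months. All 4 dwarf values lay below all 4 wild type values. The means were 1519.7 ± 207 and 961 ± 238 (SD, n = 4 each), a log2 difference of -0.68 ± 0.17 (SE), or 1.61-fold lower (adjusted p = 0.0133, limma with Benjamini-Hochberg adjustment). At 22 months the probe set read 1532, 1864 and 1666 in wild type and 2056, 1589 and 1773 in dwarf livers, with overlapping values. With the 3′ to 5′ ratio in the fit, here and below the mean log2 ratio of beta-actin and Gapdh, the adjusted p at 6 months was 0.0526.

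The other cutting subunits gave no call. Psmb6, which cuts after acidic residues, had means of 1644 ± 504 in wild type and 1558 ± 329.7 in dwarf livers at 6 months, a log2 difference of -0.05 ± 0.20. Psmb7, which cuts after basic residues, had 1460.0 ± 88.5 and 1309 ± 278, a difference of -0.18 ± 0.17. Their adjusted p-values were 0.895 and 0.502.

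The Psma ring subunits Psma4 and Psma5 were lower as well. Psma4 read 2356, 2565, 2983 and 3439.7 in wild type and 1688, 1695, 1904 and 2414 in dwarf livers at 6 months. The highest dwarf value, of animal 89, lay above the lowest wild type one, so the groups overlapped. The log2 difference was -0.56 ± 0.14, 1.47-fold lower (adjusted p = 0.0174). With only the groups compared in the fit the adjusted p was 0.0583, and with the 3′ to 5′ ratio in it 0.0537. Psma5 read 1535, 1239, 1662 and 1446 in wild type and 1039, 1182, 894 and 877 in dwarf livers. No values overlapped, and the log2 difference was -0.56 ± 0.15, 1.48-fold lower (adjusted p = 0.0243). Without wild type animal 82 or 86 its adjusted p was 0.0602 or 0.0696, and without dwarf animal 87 or 89 it was 0.0712 or 0.0687. The brightest Psma probe set, 1 for Psma3, had a log2 difference of -0.15 ± 0.16 (adjusted p = 0.572). The 13 core probe sets that did not pass ranged from -0.46 to 0.21.

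Psmb4, a core subunit without catalytic activity, had probe sets whose differences lay on opposite sides of 0. The plain _at probe set read 334, 279.6, 139 and 135 in wild type and 297, 559, 477 and 371 in dwarf livers at 6 months, 2.02-fold higher in dwarf (log2 1.02 ± 0.30, adjusted p = 0.0355), with overlapping values. It exceeded the filter signal of 184.8 on 9 of the 14 arrays, and wild type animals 86 and 88 read below that signal. The _f_at probe set read 4346, 4962, 2871 and 3712 against 3889, 2484, 2308 and 2878, a log2 difference of -0.46 ± 0.18 (adjusted p = 0.106). The _at call did not pass without any 1 of 5 animals, wild type 86 and 88 and dwarf 85, 87 and 89, with adjusted p from 0.0569 to 0.101. It did not pass under median scaling (0.0713), with no filter (0.0841), with the 3′ to 5′ ratio in the fit (0.0842) or with only the compared groups (0.0835) either. The _f_at probe set passed as lower under median scaling (0.0448) and without wild type animal 86 or dwarf animal 83 (0.0384 and 0.027). The third Psmb4 probe set, _r_at, was at the floor on all 14 arrays.

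In the cap, 3 of 22 tested probe sets passed at 6 months, all lower in dwarf livers. Psmc2, a member of the ATPase ring that unfolds substrates, had the smallest p of all members. It read 1666, 1521, 1585 and 1710.3 in wild type and 1157, 639, 744 and 975 in dwarf livers. The groups stood well apart, with every dwarf value below every wild type value. Means were 1620.4 ± 84.3 and 879 ± 233 (SD, n = 4 each), a log2 difference of -0.92 ± 0.17, or 1.89-fold lower (adjusted p = 0.00223). Under the 10 alternatives and the fits without 1 array, its adjusted p ran from 0.000605 to 0.00994.

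Psmd6, a subunit of the lid, read 1919, 2198, 2419 and 1827 in wild type and 1434, 1219.9, 1552 and 1501 in dwarf livers at 6 months. Here too the groups did not overlap. The log2 difference was -0.55 ± 0.13, 1.46-fold lower (adjusted p = 0.00913), and it stayed a call under the same alternatives, with adjusted p from 0.00142 to 0.0375. Psmd14, the deubiquitinase that removes the chain from the substrate, read 593, 785, 809 and 637 in wild type and 396, 468, 599 and 493 in dwarf livers, with 1 dwarf value above the lowest wild type one. Its log2 difference was -0.53 ± 0.17, 1.45-fold lower (adjusted p = 0.0458). This call ended without any 1 of 11 arrays (all but wild type 82 and 24 and dwarf 87), with adjusted p from 0.0514 to 0.116. It ended too with no filter (0.0618), without the intensity trend (0.0558), with the 3′ to 5′ ratio (0.0561) or the 18S signal (0.0546) in the fit and with only the compared groups (adjusted p = 0.100).

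The ubiquitin receptor Psmd4 had means of 1529.6 ± 179 and 1282 ± 154 and a log2 difference of -0.26 ± 0.14 (adjusted p = 0.225). Of the brightest probe sets of the cap families, Psmc6 differed by -0.33 ± 0.17 (adjusted p = 0.204) and the brightest of 3 Psmd11 probe sets by -0.49 ± 0.24 (adjusted p = 0.195). Both passed as lower with the 3′ to 5′ ratio in the fit (adjusted p = 0.0442 and 0.0184), and that of Psmd11 also without wild type animal 88 (0.0465). Psmd13, a lid subunit, passed as lower without wild type animal 84 (0.0261), and the _i_at probe set of the ATPase Psmc3 without dwarf animal 83 (0.0232). Both also passed under median scaling (0.0323 and 0.0161), and Psmc3 with quantile normalization (0.0374) and with either other filter. Their adjusted p with all arrays was 0.0819 and 0.0706. The 19 cap probe sets without a call ranged from -0.73 to 0.30, and 17 of all 22 lay below 0.

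Among the conjugating enzymes, 2 of 23 tested probe sets passed at 6 months, in opposite directions. Ube2a, a homologue of yeast Rad6 that works in DNA damage tolerance and histone ubiquitination, read 293, 301, 256 and 244 in wild type and 166, 69.7, 142 and 194 in dwarf livers. No values overlapped. The log2 difference was -1.03 ± 0.29, 2.04-fold lower (adjusted p = 0.0288). All dwarf animals but animal 89 read below the filter signal of 184.8, so this is a comparison of low signals. The adjusted p was 0.0683, 0.066 and 0.0515 without wild type animals 82, 84 and 86 and 0.0583 without dwarf animal 85. With no filter it was just over the threshold of 0.05, and it was 0.0799 with only the compared groups. The closely related Ube2b had a log2 difference of -0.06 ± 0.17 (adjusted p = 0.844).

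Ube2r2, which builds chains with cullin-based ligases, was the brightest Ube2 probe set and read higher in dwarf livers. Its values were 2806, 2753, 2964 and 2626 in wild type and 3624, 4313, 3586 and 3557 in dwarf livers at 6 months. Every dwarf value lay above every wild type value. The log2 difference was 0.43 ± 0.11, 1.35-fold higher (adjusted p = 0.0156). The call did not pass under median scaling, where the difference was 0.24 (adjusted p = 0.256), or with only the compared groups (0.0512).

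Ube2d3, which serves many ligases, had an _at and an _f_at probe set, at log2 differences of -0.45 ± 0.18 and -0.69 ± 0.24 (adjusted p = 0.108 and 0.065). Both passed as lower under median scaling (0.0318 and 0.0323), and the _f_at probe set also without dwarf animal 83 or 89 (0.049 and 0.0164) and under the stricter filter. Ube2n and its inactive partner Ube2v1, which build non-degradative chains together, differed by -0.12 ± 0.14 and -0.20 ± 0.16 (adjusted p = 0.608 and 0.423). Ube2c, which serves the anaphase-promoting complex, differed by 0.55 ± 0.25 (adjusted p = 0.156). In the same arrays, 1 of 6 tested markers of dividing cells was higher in dwarf livers. Ube2l6, which carries the ubiquitin-like ISG15, differed by -0.14 ± 0.28 (adjusted p = 0.777). The brighter Ube2h probe set differed by -0.42 ± 0.16 (adjusted p = 0.0864), and it passed as lower under median scaling (0.0224), with quantile normalization (0.0434) and without wild type animal 84 (0.0279). The 21 Ube2 probe sets without a call ranged from -0.69 to 0.58.

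**Figure D2:**
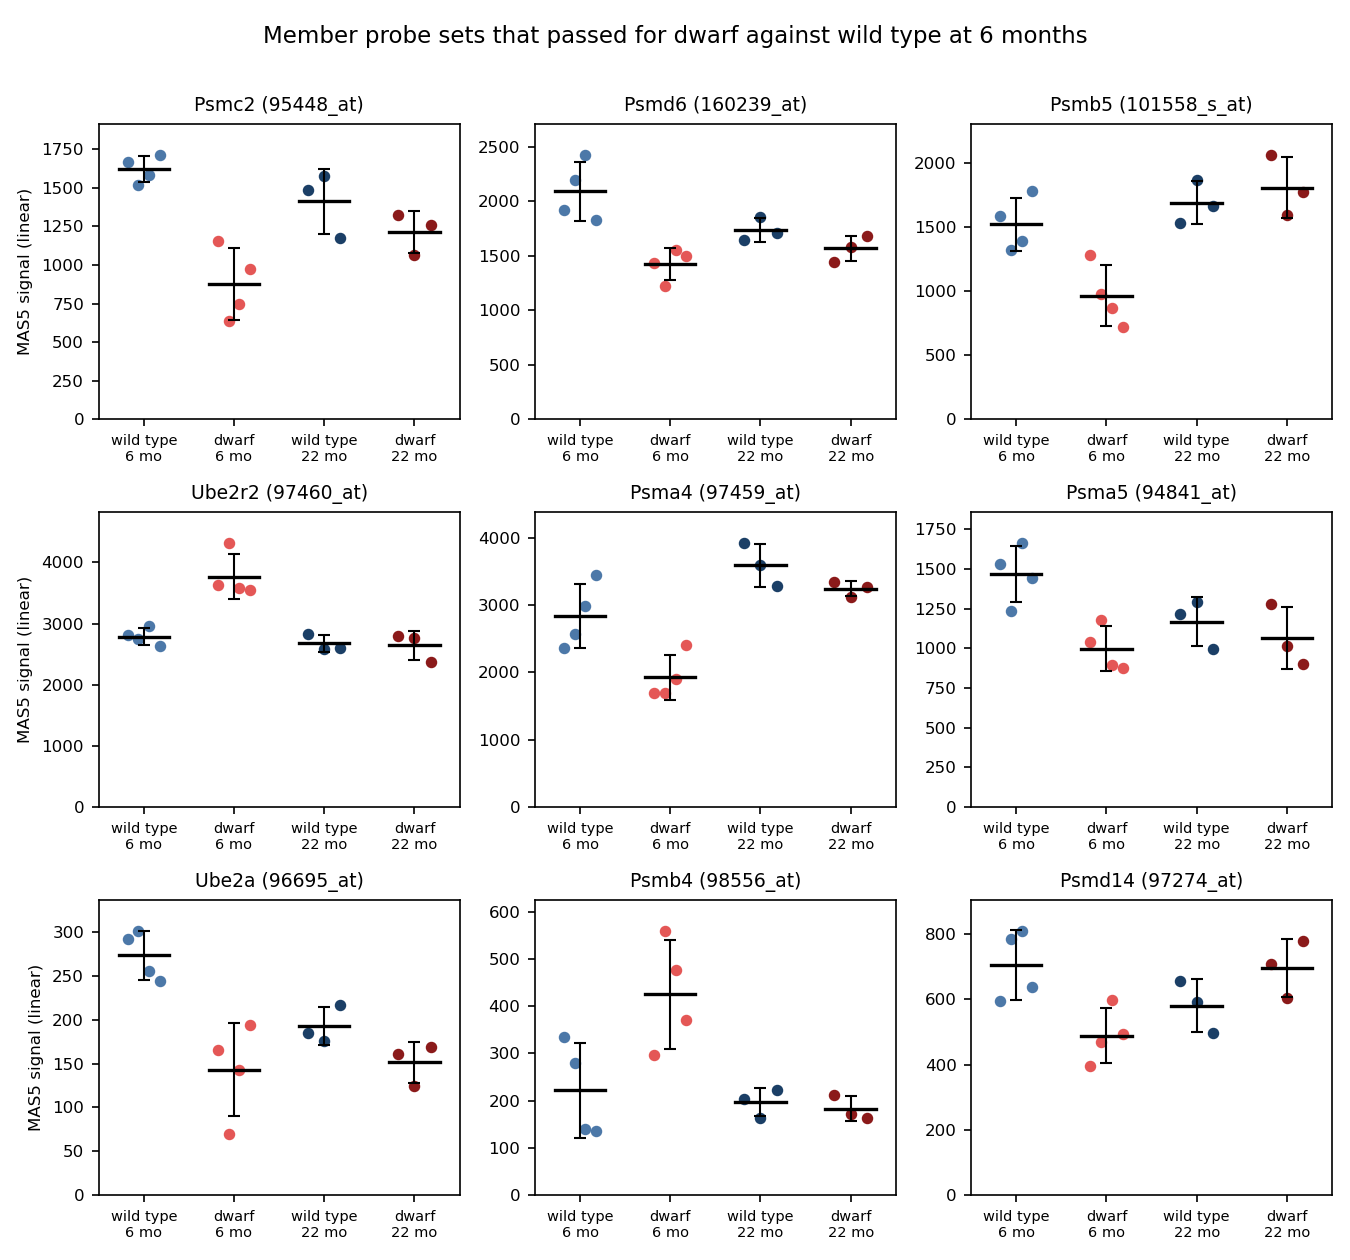
Signal (linear scale, from 0) of the 9 member probe sets that passed for dwarf against wild type at 6 months, with 1 point per animal in each of the 4 groups and lines for the group mean and SD. Psmc2, Psmd6, Psmb5, Psma5 and Ube2a show dwarf values at 6 months below all wild type values of that age, and Ube2r2 shows them above.

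At 6 months the probe set of Psmc2 had the smallest p. Of the cutting subunits, Psmb5 passed by its _s_at probe set and not by _at, and Psmb6 did not pass. The promoters of these 3 genes are shown for that reason. Each runs from 250 bases before to 50 after the annotated start, 5′ to 3′ on the strand of the gene (RefSeq, GRCm38.p6). They lie at chr5:21785025-21785324 (Psmc2, + strand), chr14:54617946-54618245 (Psmb5, - strand) and chr11:70525107-70525406 (Psmb6, + strand). Capitals mark a match to TGACNNNGC, the core of the antioxidant response element bound by Nrf factors, or to CCAAT, the CCAAT box, on either strand.
Psmc2: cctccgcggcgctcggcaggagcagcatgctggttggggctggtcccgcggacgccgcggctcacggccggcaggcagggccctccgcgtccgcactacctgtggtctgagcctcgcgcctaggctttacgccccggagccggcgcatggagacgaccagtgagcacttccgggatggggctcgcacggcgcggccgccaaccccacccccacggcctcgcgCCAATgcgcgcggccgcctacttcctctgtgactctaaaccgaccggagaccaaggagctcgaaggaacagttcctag
Psmb5: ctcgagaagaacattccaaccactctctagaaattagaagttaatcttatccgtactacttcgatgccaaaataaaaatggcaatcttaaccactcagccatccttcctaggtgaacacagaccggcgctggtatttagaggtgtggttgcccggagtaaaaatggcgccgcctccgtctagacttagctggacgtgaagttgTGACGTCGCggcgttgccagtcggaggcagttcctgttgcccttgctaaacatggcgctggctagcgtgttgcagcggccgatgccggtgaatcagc
Psmb6: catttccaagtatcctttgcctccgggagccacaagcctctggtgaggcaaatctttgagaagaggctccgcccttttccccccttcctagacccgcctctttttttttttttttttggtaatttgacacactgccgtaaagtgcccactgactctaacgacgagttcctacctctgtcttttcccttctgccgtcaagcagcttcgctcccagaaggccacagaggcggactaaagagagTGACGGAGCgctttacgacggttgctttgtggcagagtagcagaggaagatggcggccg
The TGACNNNGC matches start 47 bases before the start site in Psmb5 and 9 before it in Psmb6, and the CCAAT match of Psmc2 28 before it. RefSeq gave a second window for Psmc2, at chr5:21786497-21786796, which held neither motif and is not shown. Both cutting subunits thus held the element core, 1 with a call at 6 months in its _s_at probe set alone and 1 without. Windows were given for 45 of the 56 member genes, 53 in all. TGACNNNGC stood in 7 of the 53 (13.2%), against 12.4% of all 32851 windows, and CCAAT in 17 (32.1%), against 37.4%. In the core, cap and conjugating classes the shares with TGACNNNGC were 16.7%, 15.8% and 9.09%. Those with CCAAT were 50%, 31.6% and 22.7%. A match describes these letters and no binding.

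At 22 months no member differed between dwarf and wild type liver at the threshold. None of the 62 passed (limma, adjusted p under 0.05), against 2.93% of all probe sets tested, and 2 had an unadjusted p under 0.05. The median log2 difference was -0.04 over the members and 0.01 over all probe sets. Psmc2 read 1487, 1579 and 1173 in wild type and 1323, 1064 and 1259 in dwarf livers, with overlapping values and a difference of -0.21 ± 0.20 (adjusted p = 0.796). Psmd6 read 1642, 1856 and 1709 against 1446, 1576 and 1676, a difference of -0.15 ± 0.15 (adjusted p = 0.814). Psma5 read 1216, 1292 and 995 against 1279.5, 1016 and 901, a difference of -0.14 ± 0.18 (adjusted p = 0.884). Each of the 3 differences lay below 0, and the values of the genotypes overlapped.

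Ube2a read 185, 176 and 217 in wild type and 161, 124 and 169 in dwarf livers at 22 months. These values did not overlap, but the difference of -0.36 ± 0.34 did not pass (adjusted p = 0.799). Ube2r2 read 2837, 2583 and 2608 against 2797, 2767 and 2377, a difference of -0.02 ± 0.13 (adjusted p = 0.988), and Psmd14 656, 591 and 496 against 707, 603 and 779.7, a difference of 0.26 ± 0.19 (adjusted p = 0.689). Ube2l6 had a difference of -0.63 ± 0.33 (adjusted p = 0.46). Over the classes, uncalled differences ran from -0.50 to 0.33 in the core, -0.41 to 0.35 in the cap and -0.63 to 0.44 among conjugating enzymes. With 3 arrays a group, their number limits the precision of each difference.

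**Figure D3:**
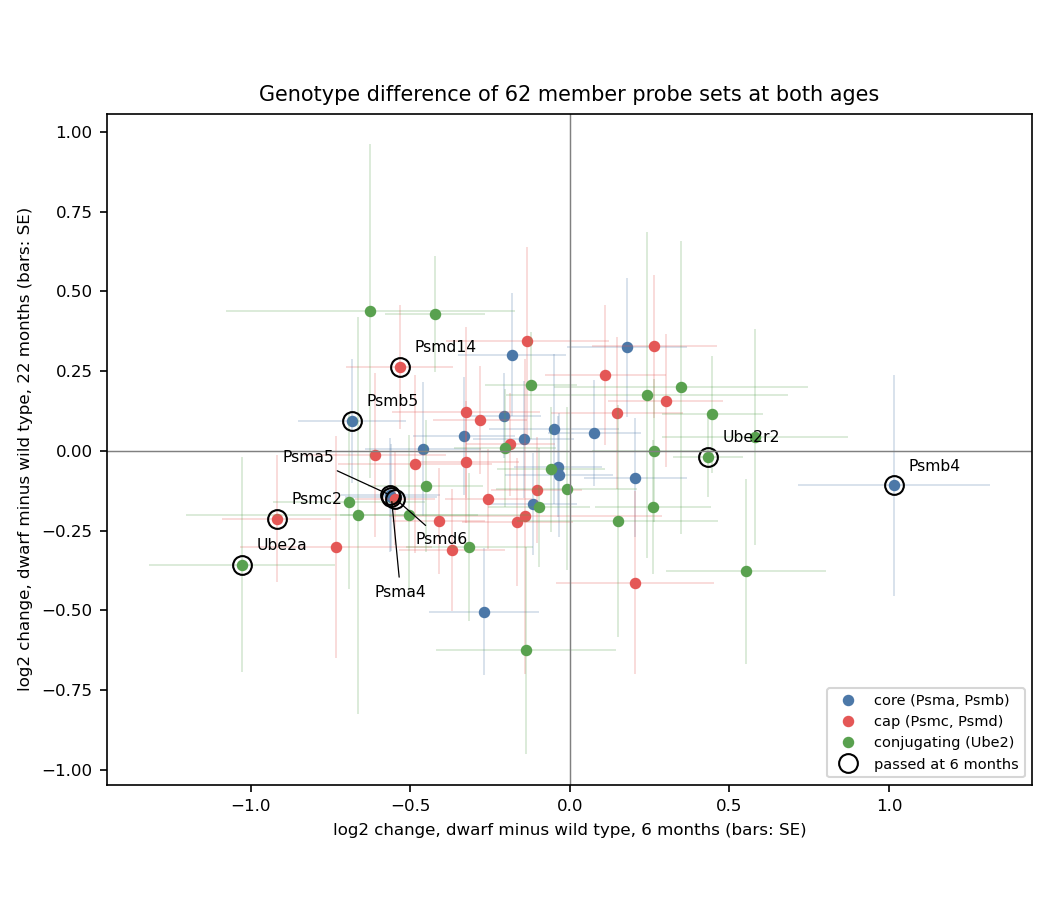
Log2 difference of dwarf minus wild type at 6 months (x axis) and at 22 months (y axis) for the 62 tested member probe sets, with SE bars, coloured by class. Circles mark the 9 members that passed at 6 months, which spread from -1.03 to 1.02 on the x axis, and no member passed on the y axis.

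The difference between the ages in the genotype effect was tested as an interaction, and no member passed, against 2.19% of all probe sets tested, while 7 had an unadjusted p under 0.05. The smallest adjusted p belonged to Ube2h, a conjugating enzyme, at 0.85 ± 0.24 (adjusted p = 0.0882), followed by Psmd14 at 0.80 ± 0.26 (adjusted p = 0.144) and Psmb5 _s_at at 0.78 ± 0.26 (adjusted p = 0.155). Under median scaling Ube2h and Psmd14 passed (0.0447 and 0.0451). Ube2h also passed without wild type animal 84 (0.038) and Psmb5 without dwarf animal 83 (0.0465). The genotype effects of the members are therefore not shown to differ between the ages. Averaged over both ages, Psmc2 and Psmd6 passed as lower in dwarf livers, with differences of -0.57 ± 0.13 and -0.35 ± 0.10 log2 (adjusted p = 0.0105 and 0.0296). These 2 of 62 members (3.23%) stand beside 10.3% of all probe sets tested. The call of Psmd6 ended without any 1 of 7 arrays (wild type 84, 86, 2 and 24 and dwarf 85, 3 and 4), with adjusted p from 0.0535 to 0.0873. It ended too with quantile normalization (0.0698) and without the intensity trend (0.0531). That of Psmc2 passed in every fit without 1 array. Without dwarf animal 83 or 89 the count on average was 4, and without wild type 84, 86, 2 or 24 or dwarf 4 it was 1. Psmb5 _s_at was among those that passed without dwarf animal 83, just under the threshold.

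With age in wild type liver, no member passed, against 2.49% of all probe sets tested, and 9 members had an unadjusted p under 0.05 (limma). The median log2 change from 6 to 22 months was -0.00 over the members and -0.02 over all probe sets. The dimmer _at probe set of Psmd11, a lid subunit that braces the cap against the core, read 362, 499, 489 and 776 at 6 months and 1129, 1042 and 686 at 22 months, a change of 0.86 ± 0.28 (adjusted p = 0.107). Psmd1, the large scaffold of the cap, read 2709, 3119.8, 3174 and 1476 at 6 months and 1570.0, 1959.7 and 1263 at 22 months, a change of -0.67 ± 0.22 (adjusted p = 0.124). In both, animal 88 lay within the range of the 22-month values. Without that animal both passed, with adjusted p of 0.0292 for Psmd11 and 0.00426 for Psmd1, and both passed with array weights (0.0399 and 0.0195). Beside them, 1 of 8 hepatocyte markers and 3 of 8 tested leukocyte and Kupffer cell markers rose with age in wild type livers.

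In dwarf liver, 9 members rose and 3 fell between 6 and 22 months, among them subunits of the core and of the cap. Of 62 tested members, 12 passed (19.4%), 9 higher and 3 lower at 22 months, against 16.5% of all probe sets tested. By direction, the background was 7.94% higher and 8.57% lower. Values of the 2 ages did not overlap in 22 of the 62 members, against 29.1% of all probe sets. The median log2 change was 0.16 over the members and -0.09 over all probe sets. This comparison and the genotype comparison at 6 months share the 4 dwarf arrays of that age, so they are not independent. Median scaling gave 17 calls, 16 higher and 1 lower, with medians of 0.36 and 0.12. Neither the 3′ to 5′ ratio nor the 18S signal overlapped between the dwarf ages (2.29 to 2.69 against 1.25 to 1.57 for beta-actin, 53.0 to 138 against 211 to 436 for 18S), so age and these measures cannot be told apart. With either as a covariate no member passed, and over all probe sets 51 and 128 did, against 1193. The 12 changes kept their direction in both fits. With the 3′ to 5′ ratio, that of Psmd1 went from -0.70 to -0.02 and the other 11 were 60.6% (Ube2h) to 134% (Psmd8) of their size. With the 18S signal the 12 were 64.9% (Psmb4 _at) to 117% (Psmb4 _f_at) of it. The median over the members was 0.20 with the ratio and 0.14 with the 18S signal. Without dwarf animal 85, 4 or 8 the members' count was 7. In the same comparison, 3 of 8 hepatocyte markers, 1 of 8 leukocyte and Kupffer cell markers and 1 of 5 endothelial markers were lower at 22 months. Of 2 red cell precursor markers 1 was higher, and of 6 interferon-stimulated genes 1 was higher and 1 lower. Their part in the changes of the members was not tested.

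In the core, the _s_at probe set of Psmb5 rose from 961 ± 238 (SD, n = 4) to 1806 ± 236 (n = 3), 1.91-fold (log2 0.93 ± 0.18, adjusted p = 0.00456). Psma4 rose to 3342, 3123 and 3262 at 22 months from the 6-month values given above, 1.70-fold (log2 0.77 ± 0.16, adjusted p = 0.00571). All 22-month values of both lay above the 6-month ones. Of the Psmb4 probe sets, _at fell to 213, 171 and 164 (log2 -1.19 ± 0.33, adjusted p = 0.0228), with no overlap, while _f_at rose to 4723, 4606 and 3651 (log2 0.60 ± 0.20, adjusted p = 0.0468), with overlap. The _at values of 171 and 164 lay below the filter signal of 184.8. The _at call ended without dwarf animal 85, 87, 4 or 8 (adjusted p from 0.0584 to 0.0721) and with no filter (0.0583). The _f_at call ended without any 1 of 10 arrays (wild type 82, 1, 2 and 24 and dwarf 85, 87, 89, 3, 4 and 8), with adjusted p from 0.0503 to 0.16. It ended too with quantile normalization (0.0836), no filter (0.103), no intensity trend (0.0744) and only the compared groups (0.0619). Psmb6 and Psmb7 had changes of -0.03 ± 0.22 and 0.27 ± 0.18 log2, neither a call (adjusted p = 0.931 and 0.318).

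The cap gave 6 of the 12 calls, 5 of them higher at 22 months. The dimmer _at probe set of Psmd11 read 382, 549.8, 326 and 688 at 6 months and 1285, 1165 and 1107 at 22 months in dwarf livers, 2.54-fold higher (log2 1.34 ± 0.28, adjusted p = 0.00606). Psmd13, another lid subunit, read 395, 246, 418 and 270.1 against 802, 737 and 554, 2.13-fold higher (log2 1.09 ± 0.24, adjusted p = 0.00844). The ages did not overlap in either of these probe sets, while they overlapped in the other tested Psmd11 probe sets. For the ATPase Psmc3, the _i_at probe set read 532, 349, 433 and 416 against 644, 647 and 723 (log2 0.65 ± 0.16, adjusted p = 0.0128), and without dwarf animal 8 the adjusted p was 0.0514. The ATPase Psmc1 read 703, 486, 613 and 682 against 958, 937 and 817 (log2 0.55 ± 0.16, adjusted p = 0.0284). Its call ended without dwarf animal 85, 87, 3 or 4 (adjusted p from 0.0568 to 0.107) and with only the compared groups (0.0583). These ATPase probe sets, too, did not overlap between the ages. The other tested Psmc3 probe sets, both _f_at, overlapped and did not pass. The brighter one read 478.2 to 693.4 at 6 months and 510.1 to 798.5 at 22 months. The dimmer one read 202.4 to 341 and 177.6 to 271.5, with the lower mean at 22 months.

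Psmd8, a lid subunit, read 886, 724, 881 and 814 at 6 months and 1090.1, 1155 and 1168 at 22 months (log2 0.47 ± 0.15, adjusted p = 0.0454). That call ended without any 1 of 10 arrays (wild type 86, 1, 2 and 24 and dwarf 85, 87, 89, 3, 4 and 8), with adjusted p from 0.0511 to 0.119, with quantile normalization (0.0518) and without the intensity trend (0.0604). Psmd1 went the other way and read 2888, 2720.3, 2500.5 and 3038 against 1742, 1664 and 1712, 1.63-fold lower (log2 -0.70 ± 0.22, adjusted p = 0.0424). It ended without any 1 of 8 arrays (wild type 1 and dwarf 83, 85, 87, 89, 3, 4 and 8), with adjusted p from 0.0521 to 0.11. It ended too under median scaling (0.163), with no filter (0.101) and without the intensity trend (0.0657), and with the 3′ to 5′ ratio in the fit the change was -0.02 ± 0.22 (adjusted p = 0.979). Psmc2, lower in dwarf livers at 6 months, had a change of 0.50 ± 0.19 (adjusted p = 0.0761). It passed as a rise under median scaling (0.0404), with array weights (0.0443) and without dwarf animal 83 (0.0194). Psmd14 had a change of 0.52 ± 0.18 (adjusted p = 0.0607), and it passed under median scaling (0.0113), with quantile normalization (0.0323), under the stricter filter (0.0425) and without dwarf animal 87 (0.0446).

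Among conjugating enzymes, the brighter Ube2h probe set rose and Ube2r2 fell with age in dwarf livers. Ube2h read 418, 466, 408 and 507 at 6 months and 810.5, 680.2 and 815 at 22 months, 1.71-fold higher with no overlap (log2 0.77 ± 0.17, adjusted p = 0.0081). In wild type livers it read 618, 458, 619.5 and 742 against 540.5, 582 and 586, a change of -0.08 ± 0.17 (adjusted p = 0.851). Ube2r2 fell 1.42-fold (log2 -0.51 ± 0.12, adjusted p = 0.0106), and not past the threshold under median scaling (0.147). Ube2n and Ube2v1 had changes of 0.45 ± 0.16 and 0.47 ± 0.17 (adjusted p = 0.061 and 0.0719), and both passed under median scaling (0.0193 and 0.0311). Ube2c had a change of -0.59 ± 0.27 (adjusted p = 0.144), beside 2 of 6 markers of dividing cells that fell.

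Probe sets of the same gene did not always run together, which bears on how far 1 of them stands for its gene. Of the 56 genes, 13 had several probe sets, and 20 probe sets carried a name suffix that marks probes shared within a family or of weaker design. The other Psmb5 probe set, _at, had means of 611 ± 41.5 in wild type and 712 ± 126 in dwarf livers at 6 months. Its difference of 0.21 ± 0.16 (adjusted p = 0.421) lay on the other side of 0 from that of _s_at. The brightest Psmd11 probe set had a change of 0.35 ± 0.26 with age in dwarf livers (adjusted p = 0.368), against 1.34 ± 0.28 for the dimmer _at one. The third, _r_at, went the other way and did not pass. Its dwarf means were 733.8 ± 69.9 at 6 months and 604.8 ± 176.6 at 22 months (SD), with overlapping values. The genes Psma4, Psma5, Psmc2, Psmd6, Psmd14, Ube2a and Ube2r2 rest on 1 probe set each.

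**Figure D4:**
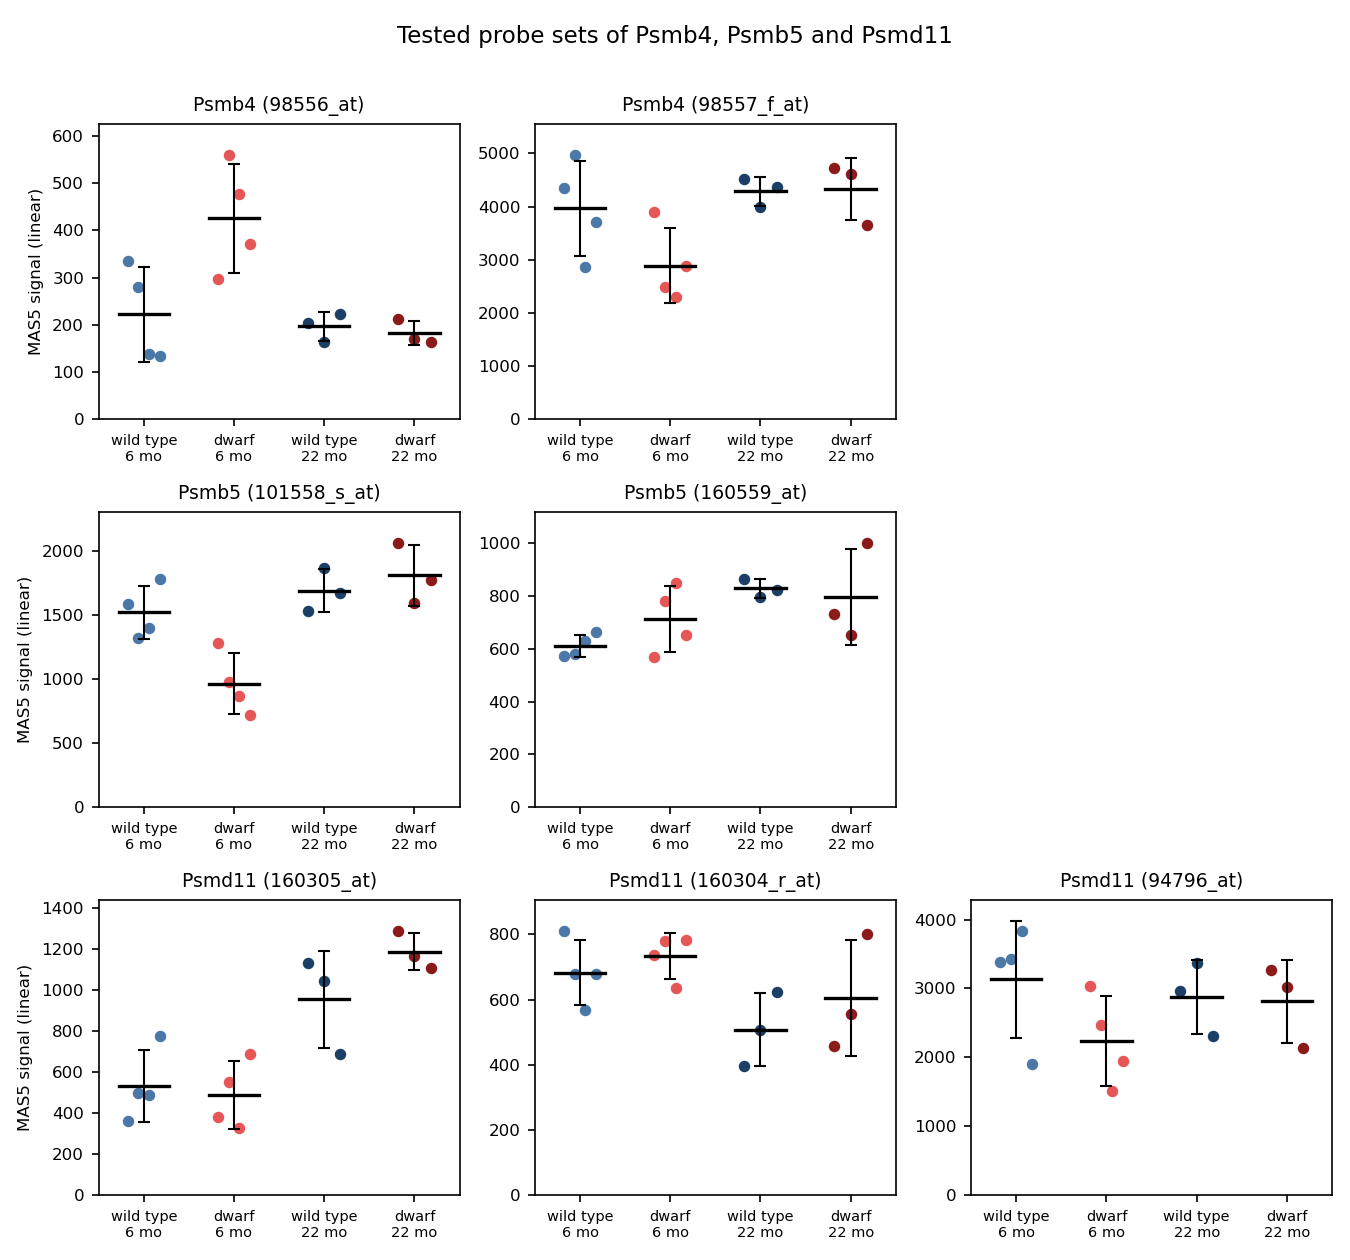
Signal (linear scale, from 0) of the 7 tested probe sets of Psmb4, Psmb5 and Psmd11, 1 panel each, with 1 point per animal in the 4 groups and lines for the group mean and SD. Probe sets of 1 gene differ in their pattern: at 6 months the _at probe set of Psmb4 is higher in dwarf livers and passed, while the _f_at one has a difference of -0.46 ± 0.18 that did not pass.

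Of the 74 members, 12 lacked signal and were not tested. They were probe sets of Psmb1, Psmb4, Psmc3ip, Psmc4, Psmc5, Psmd2, Ube2t and Ube2w, and 2 each of Ube2o and Ube2v2. Psmc3ip read 6.0 to 26.7 and the _f_at probe set of Psmc5 9.6 to 42.2, both at the floor of 54.9 on all 14 arrays. Of the tested members, 47 exceeded the filter on all 14 arrays and 15 on some of them, and none passed the filter through 1 group alone.

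The rest of the pathway was described with 4 lists. Their counts stand beside 13.3% of all probe sets tested at 6 months, 16.5% for age in dwarf livers and 10.3% for genotype averaged over both ages. The list of ubiquitin and its activation held 6 tested genes, and all belong to ubiquitin-like routes: Sumo3 and Sae1 to SUMO, Isg15 and Uba7 to ISG15, and Nedd8 and Uba3 to NEDD8. No ubiquitin gene or ubiquitin-activating enzyme was thus tested through it. Sumo3 was lower in dwarf livers at 6 months (-0.46 ± 0.14 log2, adjusted p = 0.041). With age in dwarf livers Sae1, a subunit of the SUMO-activating enzyme, and Sumo3 rose by 0.97 ± 0.17 and 0.59 ± 0.15 (adjusted p = 0.00244 and 0.0163). Averaged over both ages, Uba7 was lower in dwarf livers (-0.64 ± 0.17, adjusted p = 0.0205). Of 22 proteasome activators, assembly factors, receptors and regulators, 1 was lower at 6 months, the nuclear activator Psme4 (-0.69 ± 0.21, adjusted p = 0.038). Psme1, a subunit of the interferon-inducible activator, rose with age in wild type (0.92 ± 0.17, adjusted p = 0.0117) and dwarf livers (0.64 ± 0.17, adjusted p = 0.0209), and was lower in dwarf livers on average over the ages (-0.43 ± 0.12, adjusted p = 0.0301). With age in dwarf livers 3 genes of this list rose and 2 fell. Beside Psme1, the shuttle receptor Ubqln1 (0.67 ± 0.15, adjusted p = 0.00824) and the small cap subunit Sem1 (0.72 ± 0.19, adjusted p = 0.0191) rose. The shuttle receptor Rad23b (-0.59 ± 0.14, adjusted p = 0.0131) fell, as did the assembly chaperone Psmg3 (-0.84 ± 0.28, adjusted p = 0.0497), which is named after its value was seen.

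The immunoproteasome subunits that replace the cutting subunits were lower in dwarf livers when averaged over ages. Psmb8, Psmb9 and Psmb10 differed by -1.14 ± 0.26, -1.25 ± 0.34 and -0.67 ± 0.18 (adjusted p = 0.00885, 0.0269 and 0.0227). Of the 22 genes of the list of activators and regulators, 4 passed on average, all lower, against 10.3% of all probe sets tested. Psmb8 and Psmb9 passed at neither age alone. Psmb10 read 1464, 1249 and 1384 in wild type and 727, 743 and 419 in dwarf livers at 22 months and passed there too (-1.16 ± 0.27, adjusted p = 0.0249). The constitutive Psmb5, Psmb6 and Psmb7, which they replace, did not pass at 22 months or on average with all arrays in the fit. In the same arrays, the signal of 6 interferon-stimulated genes was summed. Psmb8 and Psmb9 are among the 6, so this sum is not separate from them. It was 3840 to 4919 in wild type and 1813 to 2390 in dwarf livers at 22 months. At 6 months it was 2077 to 3135 and 1933.5 to 2840, with overlap. The 6 also hold Usp18, which was higher in dwarf livers at 6 months. Over the 6 genes, the median log2 difference of dwarf minus wild type was -0.92 at 6 months and -0.95 at 22 months. The sum of 8 leukocyte and Kupffer cell markers was 7031 to 11929 and 4700 to 5947 at 22 months. At 6 months the marker sum was 3999 to 7297 in wild type and 5831 to 8507 in dwarf livers, with the higher median in dwarf livers. Their part in the result was not tested.

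Of 25 tested genes of the ligase list, 3 were lower and 1 higher in dwarf livers at 6 months, against 13.3% of all probe sets tested. The higher one was Rnf14 (0.44 ± 0.12, adjusted p = 0.0255). The lower ones were Cdc34 (-0.74 ± 0.16, adjusted p = 0.00747), itself a conjugating enzyme without a Ube2 symbol, Skp1 (-0.50 ± 0.12, adjusted p = 0.0102), an adaptor of cullin ligases, and Rnf5 (-0.45 ± 0.14, adjusted p = 0.0483). Cdc34 read 1105, 834, 778 and 1111 in wild type and 554, 613, 567 and 534 in dwarf livers, with no overlap. With age in dwarf livers 3 of the list rose and 1 fell, against 16.5% of all probe sets tested. Cdc34 (0.95 ± 0.18, adjusted p = 0.00358) and the ligase Nedd4 (0.60 ± 0.16, adjusted p = 0.0211) rose, and Rnf14 fell (-0.43 ± 0.13, adjusted p = 0.0397). Skp1 rose too (0.83 ± 0.13, adjusted p = 0.00135) and passed the interaction (0.78 ± 0.18, adjusted p = 0.0332). Of 18 tested deubiquitinases, 2 were lower and 1 higher in dwarf livers at 6 months, beside the same 13.3%. Usp25 was among the lower ones (-0.52 ± 0.16, adjusted p = 0.0409). Usp15 was lower in dwarf livers at both ages. It read 667, 822, 879 and 968 in wild type and 339, 333, 267 and 440.4 in dwarf livers at 6 months (-1.28 ± 0.19, adjusted p = 0.000338). At 22 months it read 655, 657 and 649 against 268, 244 and 410.3 (-1.13 ± 0.22, adjusted p = 0.0079). Usp18, the protease that removes ISG15, was higher in dwarf livers at 6 months (2.64 ± 0.41, adjusted p = 0.000467), with 58.8, 160.1, 155 and 104 in wild type and 661, 606, 828 and 679.7 in dwarf livers. With age in dwarf livers it fell (-1.48 ± 0.44, adjusted p = 0.0345), and Cops5, the protease that removes NEDD8 from cullins, rose (0.59 ± 0.17, adjusted p = 0.0298).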

How the data were processed

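Values are probe set signal intensities on a linear scale, as deposited by the authors, who used MAS5 according to the labels (per the submitters' processing notes). Its version and scaling target are not given in the sources used here, and no detection calls were used. Groups were taken from the titles. The members and gene lists were chosen with earlier results of these data known. After 66 control probe sets were left out, signals below the pooled 25th percentile (54.9) were set to it, and the 7227 probe sets above the pooled median (184.8) on at least 3 arrays were tested. The array annotation lists 1 symbol for 10855 of the 12488 probe sets, several for 396 and none for 1237.

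Group means of log2 signal were estimated over all 14 arrays together in limma 3.58.1 (R 4.3.3, eBayes with an intensity trend), and 6 contrasts were drawn from them. Benjamini-Hochberg adjustment ran over all probe sets tested, separately for each contrast, and a probe set passed under 0.05. A log2 value is followed by its SE, and folds come from log2 signal after the floor. The fit was tested on simulated data with known changes. Of 2-fold changes it recovered 52.2% for genotype at 6 months, 34.3% for genotype at 22 months and 26.9% for the interaction. Of 1.5-fold changes it recovered 20.9%, 13.4% and 4.48%. A count of 0 therefore does not exclude changes of these sizes. Each p-value sets a difference against the spread between animals of the same group, pooled over the 4 groups and drawn towards the intensity trend. Members were named when they passed (up to 12 per direction and contrast), were the brightest of their family, or belonged to a fixed set of well-known enzymes, and genes of the other lists when they passed (up to 4 per list and contrast) or were Psmb8, Psmb9 or Psmb10. The 10 alternatives were quantile normalization, median scaling, a pseudocount of 16 without floor, no filter, a stricter filter, no trend, array weights, only the compared groups, and the 3′ to 5′ ratio or the 18S signal as covariate; each array was also left out in turn. The ratio used as covariate was the mean of the log2 3′ to 5′ ratios of beta-actin and Gapdh. Promoters were read from RefSeq windows of GRCm38.p6. All 56 member genes matched RefSeq by gene identifier, with the same symbol, and 45 had windows. Python 3.11.15 and pandas 2.3.3 were used for tables.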

Additional observations from a re-analysis of the deposited data

Results flagged for a closer look

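In the groups of 4, 2 named members held 1 animal far from the other 3. Psmd4, the ubiquitin receptor of the cap, read 1796.2 in wild type animal 88 at 6 months, while the others read 1414.8 to 1471.9. Ube2r2, the cullin-linked conjugating enzyme, read 4313.1 in dwarf animal 85 at 6 months, while the others read 3556.7 to 3624.5. Among 148 such groups over all 74 members, 4 met the same criterion, which chance meets in about 5% of groups. Without animal 85, Ube2r2 still passed at 6 months, and without animal 88, Psmd4 still did not.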

How the results depend on the processing

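No direction of a named call reversed under the alternatives. At 6 months the count of 9 members became 14 under median scaling and 4 with only the compared groups, and 6 to 11 without 1 array. At 22 months it was 0 in each fit, also without 1 array (0 to 0). For age in wild type livers it became 2 with array weights and was 0 to 2 without 1 array. For age in dwarf livers the count of 12 became 0 with the 3′ to 5′ ratio and 0 with the 18S signal as covariate, and was 7 to 14 without 1 array. The interaction gave 2 under median scaling and 0 to 1 without 1 array. For the average over ages the count of 2 became 6 under median scaling, 5 under the stricter filter and 6 with array weights, and was 1 to 4 without 1 array. The cause of these shifts was not tested. Of the 9 calls at 6 months, 2 (Psmc2 and Psmd6) were kept in every fit; of the 12 for age in dwarf livers, none was. No paired analysis was run, because the sources used here give no litter or pairing of the animals, so pairing is not known. With 3 or 4 arrays a group and signals near the filter for members such as Ube2a, the number of arrays limits the precision.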
